A study of Homo sapiens with 8 samples.

Results

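The BCL2 family decides whether mitochondria release cytochrome c during apoptosis, and 10 of its genes were followed here, chosen by name as all rows of the deposited expression table that carry their symbols. They are 3 pro-survival genes (BCL2, BCL2L1 and MCL1), 2 effectors (BAX and BAK1) and 5 BH3-only genes (BBC3, PMAIP1, BCL2L11, BID and BAD). All 10 symbols were present, each in 1 row of the 16782 genes in the table, and all 10 passed the filter on low values. CAKI1 is an established human renal carcinoma cell line. RNA was measured in 4 control samples and in 4 samples treated for 24 h with 5 µg/mL of holo lipocalin-2 (hLcn-2), the iron-loaded form of the protein. Both groups had been deprived of serum for 24 h before, and no other agent or genetic change was named. The samples carry the numbers N1 to N4 in both groups, and whether they came from separate cultures was not stated. P-values therefore set differences against the spread between these samples, or between same-numbered pairs where the number is used as a block. Either spread may be technical. All values come from a single cell line and say nothing of protein.

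In healthy and malignant epithelium alike, pro-survival family members hold the effectors BAX and BAK1 in check at the outer mitochondrial membrane. BH3-only proteins sense stress, occupy the pro-survival proteins or act on the effectors, and the effectors then open the membrane. Renal carcinoma cells are known to lean on MCL1 and on the BCL2L1 product BCL-XL. Ferroptosis, which the study examined, is an iron-dependent form of cell death that does not run through this switch, so the comparison asks whether the mRNA of the apoptotic machinery moved beside it. The 3′ kit used reads the end of each transcript, so the number of reads depends little on transcript length. On that basis levels of different genes are set side by side here. Whether the ends of all genes were captured and counted equally well was not tested. The kit does not separate isoforms such as the long and short forms of BCL2L1.

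The unit throughout is the normalized count on the scale of CPM (reads scaled to a common library size). The libraries held between 1501563 reads in control 4 and 13953090 in control 1, so that 1 read was worth 0.0704 to 0.658 normalized counts. Of 12 markers listed for renal carcinoma lines 9 were in the table, led by VIM (1302 to 2181), MET (829 to 1049) and CDH2 (311 to 591) and including the renal lineage factor gene PAX8 (201 to 245), while PAX2 stayed between 1.32 and 5.29 and CA9, LRP2 and KRT19 were not among the genes used here. Of 10 markers of other cell types 4 were in the table, summing to between 5.27 and 7.65 in controls and between 4.65 and 6.68 after hLcn-2, and PTPRC, CD3E, PECAM1, CDH5, DES and HBB were not among the genes used here.

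Stretches of promoter are shown for the most abundant pair of BH3-only genes, PMAIP1 and BBC3, and for BCL2L11. Of the members, PMAIP1 and BCL2L11 had the largest share of their mRNA variation between replicate numbers and BBC3 the smallest. The sequences are those of RefSeq on GRCh38.p14, from 250 bases before to 50 after the start site in the table, 5′ to 3′ on the strand of the gene. PMAIP1 lies on the plus strand with its window at chr18:59899746-59900045, BCL2L11 on the plus strand at chr2:111120664-111120963 and BBC3 on the minus strand at chr19:47232618-47232917. Capitals mark matches to the half-site of the cyclic AMP response element, the motif bound by ATF and CREB factors, searched as TGACG on both strands.
PMAIP1: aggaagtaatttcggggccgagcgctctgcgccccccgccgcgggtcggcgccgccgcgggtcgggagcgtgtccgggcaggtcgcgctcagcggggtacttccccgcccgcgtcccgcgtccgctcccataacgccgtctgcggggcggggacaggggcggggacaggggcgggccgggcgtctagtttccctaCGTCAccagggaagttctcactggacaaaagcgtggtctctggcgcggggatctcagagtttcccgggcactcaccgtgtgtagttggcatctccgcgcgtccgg
BCL2L11: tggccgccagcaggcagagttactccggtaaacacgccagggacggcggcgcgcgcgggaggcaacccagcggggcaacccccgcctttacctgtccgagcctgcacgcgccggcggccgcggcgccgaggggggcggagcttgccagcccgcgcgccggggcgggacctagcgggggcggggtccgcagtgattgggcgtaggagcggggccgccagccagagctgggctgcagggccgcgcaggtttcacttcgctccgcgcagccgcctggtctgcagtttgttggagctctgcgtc
BBC3: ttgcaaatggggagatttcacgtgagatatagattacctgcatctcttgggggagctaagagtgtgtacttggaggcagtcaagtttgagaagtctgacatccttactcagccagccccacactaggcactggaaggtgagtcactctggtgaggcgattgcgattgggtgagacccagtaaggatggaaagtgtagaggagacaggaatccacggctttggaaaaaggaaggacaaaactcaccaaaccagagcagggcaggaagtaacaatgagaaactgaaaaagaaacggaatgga

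The PMAIP1 window held 1 half-site, beginning 55 bases before the start site, and the other printed windows held none. Of the 9 member promoters in the table (all members but MCL1), 5 held at least 1 half-site (BCL2, BCL2L1, BAX, PMAIP1 and BAD), as did 24.6% of the 35116 promoters of the table. The full element, TGACGTCA, which contains the half-site, was found in none of the 9 and in 1.85% of all promoters. The composite motif of ATF4 and C/EBP, searched as TGATGNAA on both strands, was likewise in none of the 9 and in 3.62% of all. GC boxes (GGGCGG, both strands) numbered 4 in the PMAIP1 window, 3 in that of BCL2L11 and 0 in that of BBC3. Among the windows not printed BID held 4, BAX and BAK1 2 each, BAD 1, and BCL2 and BCL2L1 0. At least 1 was present in 45.0% of all promoters. The GC content was 71.3% for PMAIP1, 74.7% for BCL2L11 and 48.0% for BBC3, with a median of 58.7% over all promoters. These matches describe the letters in these windows and no binding was measured.

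No member of the family changed past the threshold after hLcn-2. In limma without a replicate block, 0 of 10 members had an adjusted p-value under 0.05, and 0 had an unadjusted one under 0.05. That adjusted value was 0.9999 for each of the 10 and for each pathway gene named further on, and is not repeated. Among all 15593 genes tested, 0 (0%) passed the adjusted threshold and 2.28% had an unadjusted p-value under 0.05. With the number N1 to N4 as a block, which same-numbered samples bore out by deviating together, 0 of 10 members were called against 0.282% of all genes. The unadjusted p-value with the block was under 0.05 for BAK1 and BBC3, 2 of 10 members, against 12.2% of all genes. Run on whole reads and blocked, edgeR's quasi-likelihood test called 0 members and 1.49% of all genes. DESeq2 without the block called 0 members and 0 of all 15593 genes. With the block it called 0 members and 173 of all genes, and gave 6349 genes no adjusted p-value. SLC7A11, the cystine transporter gene that the study followed, stood at 512 ± 90.4 (SD, n = 4) in controls and at 847 ± 157 (SD, n = 4) with hLcn-2, and was called only when blocked (limma adjusted p = 0.0150, against 0.9999).

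The fold changes of the 10 members were small and went both ways. Log2 fold changes, on log2(normalized count + 1), ran from -0.44 for BAK1 to 0.32 for BCL2, with 5 members above and 5 below 0. Their median was 0.0063, beside 0.00083 over all genes tested, and their median absolute value was 0.23, beside 0.14. For 0 of 10 members did the controls and the hLcn-2 samples separate without overlap, as they did for 1.88% of all genes. Within the 4 same-numbered pairs, 1 member (BCL2L11) was higher after hLcn-2 in all 4, against 9.93% of all genes. In all 4 pairs 3 members (BAK1, BID and PMAIP1) were lower, against 10.9%.

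**Figure D1:**
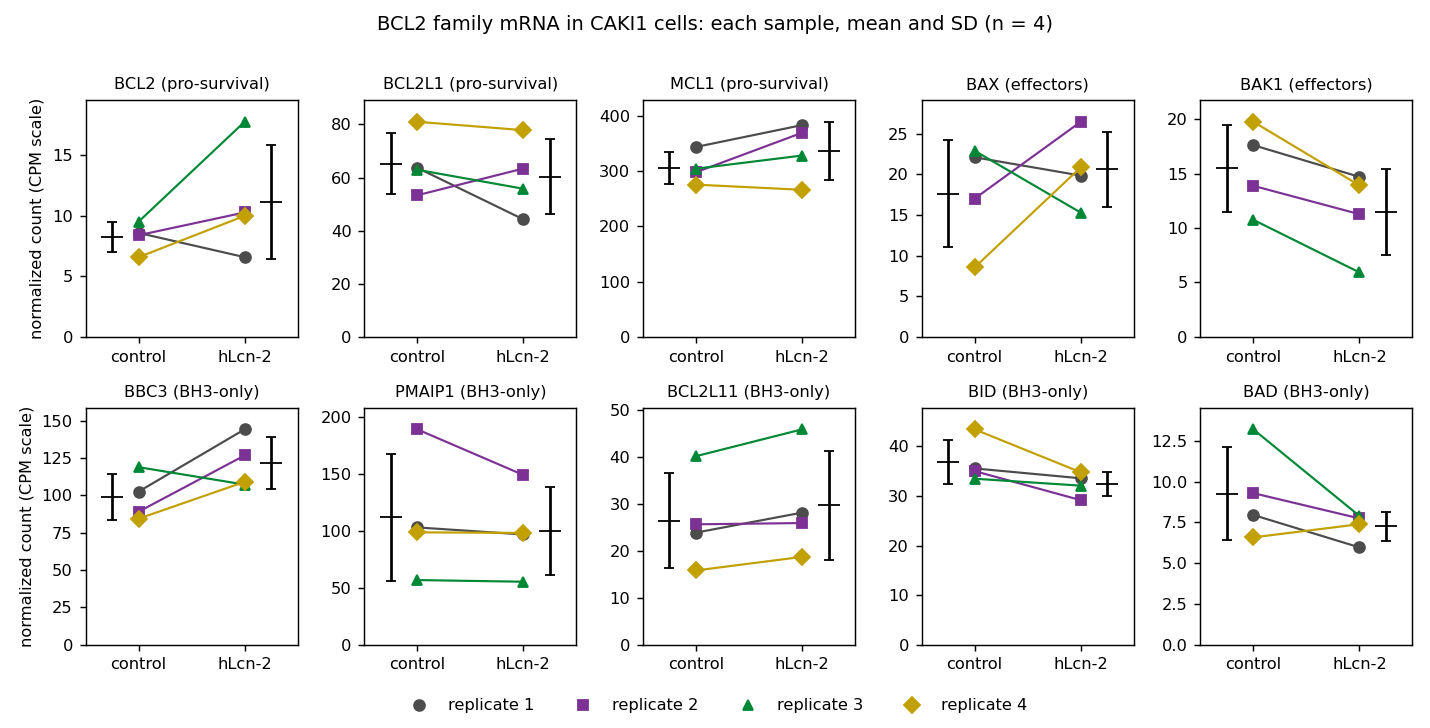
Normalized counts (CPM scale) of the 10 members in each of 8 samples, with controls on the left, hLcn-2 on the right and same-numbered samples joined. Bars give mean and SD (n = 4), and for every member the ranges of both groups overlap.

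The 10 members differed far more from each other than between the groups. MCL1 was the most abundant of them, with a mean of 321 normalized counts over the 8 samples. It made up 44.9% of their summed mRNA. BBC3 with 110 and PMAIP1 with 106 came next and could not be ordered, BBC3 being the higher in 4 of 8 samples. BCL2L1 followed at 62.8, overlapping with PMAIP1, above BID (34.6) in 8 of 8 samples without overlap of their ranges. BID, BCL2L11 (28.0), BAX (19.1), BAK1 (13.5), BCL2 (9.72) and BAD (8.26) then overlapped each with its neighbour. From BCL2L11 to BAX the step was 0.87 times the larger SD and from BAX to BAK1 it was 1.03 times. The 3 pro-survival members made up between 48.6% and 57.1% of the summed mRNA of the 10 in controls. After hLcn-2 their share was between 53.9% and 59.8%.

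MCL1 encodes a short-lived pro-survival protein that binds BAK1 and some of the BH3-only proteins. Its gene (ENSG00000143384) has 3 exons and spans chr1:150560895-150579738 (minus strand, GRCh38, as for all positions given here). Controls 1 to 4 had 343, 298, 304 and 275 normalized counts, and hLcn-2 samples 1 to 4 had 383, 369, 328 and 266. The highest control lay above 2 of the hLcn-2 samples, and the lowest value of all was that of hLcn-2 sample 4. The means were 305 ± 28.3 (SD, n = 4) and 336 ± 52.5 (SD, n = 4), 0.13 apart on the log2 scale (standard error 0.14). The 95% interval of the difference ran from -0.18 to 0.44 without the block and from -0.037 to 0.30 with it, where the adjusted p was 0.545. MCL1 rested on 418 to 4874 reads per sample, the largest numbers in the family, so counting error alone would give a coefficient of variation of 2.67% where 13.2% was seen.

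BCL2L1, which encodes BCL-XL, spans chr20:31664452-31723989 (minus strand). It had 63.7, 53.3, 62.9 and 81.0 normalized counts in controls 1 to 4 and 44.3, 63.4, 55.8 and 77.8 after hLcn-2. The samples numbered 4 were the highest of both groups, and the ranges of the groups largely coincided. The log2 fold change was -0.12 (standard error 0.19, 95% interval -0.53 to 0.29, limma adjusted p = 0.722 with the block). Without hLcn-2 sample 1, the lowest of all, it was 0.012.

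BCL2 itself, the founding gene of the family, spans chr18:63123346-63320128 (minus strand). Controls 1 to 4 had 8.59, 8.40, 9.52 and 6.58 normalized counts and hLcn-2 samples 6.59, 10.3, 17.8 and 10.0. Sample 3 stood highest in both groups, at 17.8 after hLcn-2 on 36 reads, with an exact Poisson 95% interval of 12.4 to 24.6 that covers counting error only. Control 4 rested on 10 reads, with an interval of 3.16 to 12.1. BCL2 was higher after hLcn-2 in 3 of 4 pairs. It had the highest log2 fold change of the 10 members, 0.32 (standard error 0.27, 95% interval -0.26 to 0.91). With the block the limma adjusted p was 0.558. With the hLcn-2 samples otherwise between 6.59 and 10.3 against 6.58 to 9.52 in controls, the groups overlapped. The log2 fold change was 0.090 without hLcn-2 sample 3, below those of BAX, BBC3, MCL1 and PMAIP1 in that fit. It was 0.53 without hLcn-2 sample 1.

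**Figure D2:**
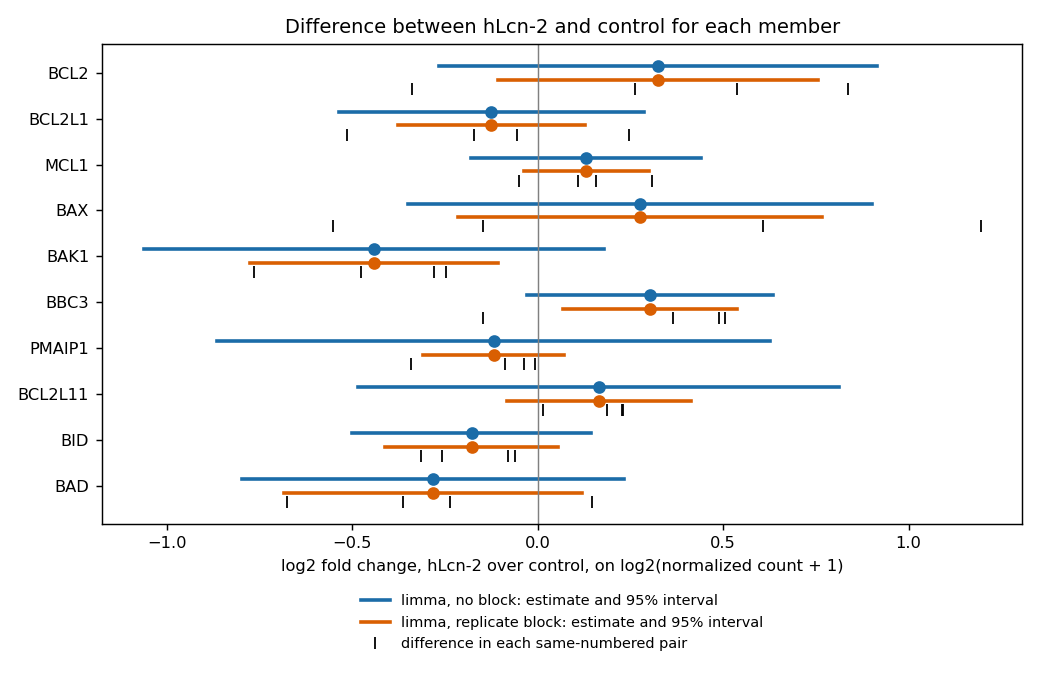
Log2 fold change of each member, hLcn-2 over control, on log2(normalized count + 1), with 95% intervals from limma without (blue) and with (orange) the replicate block and ticks for the 4 pairs. Without the block all 10 intervals cross 0, and with it those of BAK1 (-0.77 to -0.11) and BBC3 (0.070 to 0.54) do not, before adjustment for the number of genes.

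The effectors moved in different directions, neither beyond the threshold. BAK1, whose protein resides in the outer mitochondrial membrane, spans chr6:33572547-33580293 (minus strand). Its normalized counts were 17.6, 13.9, 10.8 and 19.8 in controls 1 to 4 and 14.7, 11.3, 5.92 and 13.9 after hLcn-2. Each hLcn-2 sample was below the control of its number, at log2 differences of -0.25, -0.28, -0.76 and -0.48, yet the groups overlapped, control 2 lying below hLcn-2 sample 1, and the samples numbered 3 were the lowest of both. The means were 15.5 ± 3.99 (SD, n = 4) and 11.5 ± 3.97 (SD, n = 4). This put BAK1 lowest of the 10 members at -0.44 on the log2 scale (standard error 0.28). Blocked by number, the adjusted p-value of BAK1 was 0.268 in limma and 0.260 in edgeR. The value of hLcn-2 sample 3 rested on 12 reads, with an exact Poisson 95% interval of 3.06 to 10.3. Without that sample the log2 fold change was -0.18, no longer the lowest of the 10 members.

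BAX, which moves from the cytosol to mitochondria on activation, spans chr19:48954815-48961798 (plus strand). Controls had 22.1, 17.0, 22.9 and 8.56 normalized counts and hLcn-2 samples had 19.9, 26.5, 15.3 and 20.9. It was higher in 2 pairs and lower in 2, with differences of -0.15, 0.61, -0.55 and 1.19 on the log2 scale. The SD of the 4 pair differences, 0.78, was the widest of the 10 members. It was larger than their mean of 0.28 (limma adjusted p = 0.676 when blocked). Control 4, the shallowest library, held 13 reads of BAX, with an interval of 4.56 to 14.6 that lies below the other 3 controls. Without that library the log2 fold change was -0.017 and without both samples of its number -0.031.

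Of the BH3-only members, BBC3 had the smallest p-values in limma and edgeR. BBC3 encodes PUMA, a stress-induced protein that binds all pro-survival members, and spans chr19:47220822-47232766 (minus strand). Normalized counts were 102, 89.0, 119 and 84.3 in controls 1 to 4 and 144, 127, 107 and 109 after hLcn-2. Pairs 1, 2 and 4 were higher after hLcn-2 by 0.49, 0.50 and 0.37 on the log2 scale, and pair 3 differed by -0.15. Control 3, the highest control, lay above 2 hLcn-2 samples. The means were 98.6 ± 15.5 (SD, n = 4) and 122 ± 17.3 (SD, n = 4), a fold of 1.23 on the log2(normalized count + 1) scale, or 0.30 in log2 units (standard error 0.15). Blocked by number, the adjusted p-value of BBC3 was 0.280 in limma. In edgeR it was 0.119, the lowest of the 10 members there. An exact permutation test of the 4 against 4 samples gave p = 0.114 (two-sided, unadjusted), where 0.0286 is the smallest it allows. The same test gave its smallest p among the 10 members for BID, 0.0857.

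PMAIP1 encodes NOXA, which binds MCL1 and marks it for degradation, and spans chr18:59899996-59904305 (plus strand). It had 103, 189, 56.8 and 98.8 normalized counts in controls 1 to 4 and 96.9, 149, 55.3 and 98.3 after hLcn-2. The samples numbered 2 were the highest of both groups and those numbered 3 the lowest, and each number gave nearly the same value with and without hLcn-2, except number 2. The log2 fold change was -0.12 with a standard error of 0.34 without the block, and its 95% interval of -0.86 to 0.63 narrowed to -0.31 to 0.072 with it (limma adjusted p = 0.640). Leaving out control 2 or hLcn-2 sample 3, which breaks a pair, gave 0.18 and 0.13, while all 4 pairs were lower and the blocked value stayed between -0.16 and -0.044 with both samples of 1 number left out.

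BCL2L11 encodes BIM, a direct activator of the effectors, and spans chr2:111119378-111168444 (plus strand), where its last exon is overlapped on the opposite strand by MIR4435-2HG. Normalized counts were 23.9, 25.7, 40.2 and 15.8 in controls 1 to 4 and 28.1, 25.9, 45.9 and 18.7 after hLcn-2. Here the samples numbered 3 were the highest and those numbered 4 the lowest in both groups. All 4 pairs were higher after hLcn-2, by 0.014 to 0.23 on the log2 scale, a difference smaller than the spread between numbers (log2 fold change 0.17, standard error 0.30, limma adjusted p = 0.613 when blocked). Leaving out control 4 or hLcn-2 sample 3, which breaks a pair, gave -0.045 and -0.063.

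**Figure D3:**
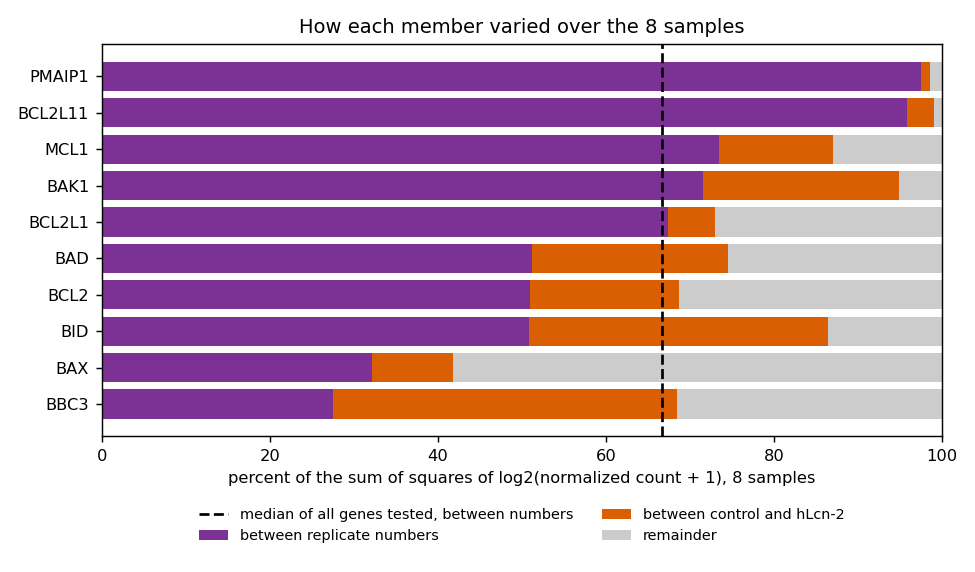
Share of the sum of squares of log2(normalized count + 1) over 8 samples that lay between replicate numbers (purple), between control and hLcn-2 (orange) and in the remainder (grey), for each member. PMAIP1 (97.5%) and BCL2L11 (95.9%) stand highest between numbers and BBC3 (27.5%) lowest, and the dashed line is the median of all genes tested (66.6%).

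The members differed in how their variation was divided between replicate numbers, which have 3 degrees of freedom, and groups, which have 1. Of the sum of squares over the 8 samples, 97.5% lay between numbers for PMAIP1 and 95.9% for BCL2L11, against a median of 66.6% over all genes tested. The shares between control and hLcn-2 were 1.11% and 3.20%, against a median of 6.15%. BBC3 was the only member with more between the groups (41.0%) than between the numbers (27.5%), and 91.1% of all genes had more between the numbers, as the other 9 members did. Counting error was small beside this for PMAIP1, whose coefficient of variation was 42.3% where counting alone would give 4.41%. For BID it was 11.8% where counting alone would give 8.55%, and for BAD 27.1% against 16.6%. What the numbers stand for was not stated, and no cause of the differences between them was tested.

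BID and BAD were the BH3-only members left. BID, which links death receptors to mitochondria once cut by caspase 8, spans chr22:17734138-17774770 (minus strand). It ranged from 33.5 to 43.5 normalized counts in controls and from 29.2 to 34.8 after hLcn-2, and each of its 4 pairs was lower, at log2 differences of -0.31 to -0.060. The mean difference of -0.18 (standard error 0.15) was not called (limma adjusted p = 0.553 when blocked). BAD, which is held by 14-3-3 proteins while growth factor signals phosphorylate it, spans chr11:64269830-64284704 (minus strand), and its last exon is overlapped on the opposite strand by GPR137. It ranged from 6.58 to 13.2 in controls and from 5.97 to 7.90 after hLcn-2, on 10 to 124 reads per sample. BAD was lower in 3 of 4 pairs and averaged -0.28 on the log2 scale (standard error 0.24, limma adjusted p = 0.587 when blocked), and at this depth a difference of this size could not be told from the spread. It was -0.11 without control 3 and -0.41 without control 4.

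The balance between opposing members, often read as a measure of how close a cell is to apoptosis, was formed within each sample and therefore does not depend on library scaling. The summed pro-survival mRNA was 10.46, 11.6, 11.2 and 12.8 times that of the effectors in controls 1 to 4, and 12.5, 11.7, 18.9 and 10.2 times after hLcn-2. The highest and the lowest of all 8 were both hLcn-2 samples, and hLcn-2 sample 3, the highest, held 12 reads of BAK1 and 31 of BAX. MCL1 exceeded PMAIP1, the gene of its specific antagonist, by 3.33, 1.57, 5.36 and 2.79 times in controls and by 3.95, 2.47, 5.93 and 2.71 times after hLcn-2. This ratio was higher after hLcn-2 in 3 of 4 pairs and ordered the samples by number rather than by treatment, with number 3 highest and number 2 lowest. The ratio of BCL2L1 to BAX ran from 2.75 to 9.46 in controls and from 2.23 to 3.73 after hLcn-2, and that of BCL2 to BAX from 0.389 to 0.769 and from 0.332 to 1.16. All 4 ratios overlapped between the groups, and since they are built from chosen members they were given no test.

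**Figure D4:**
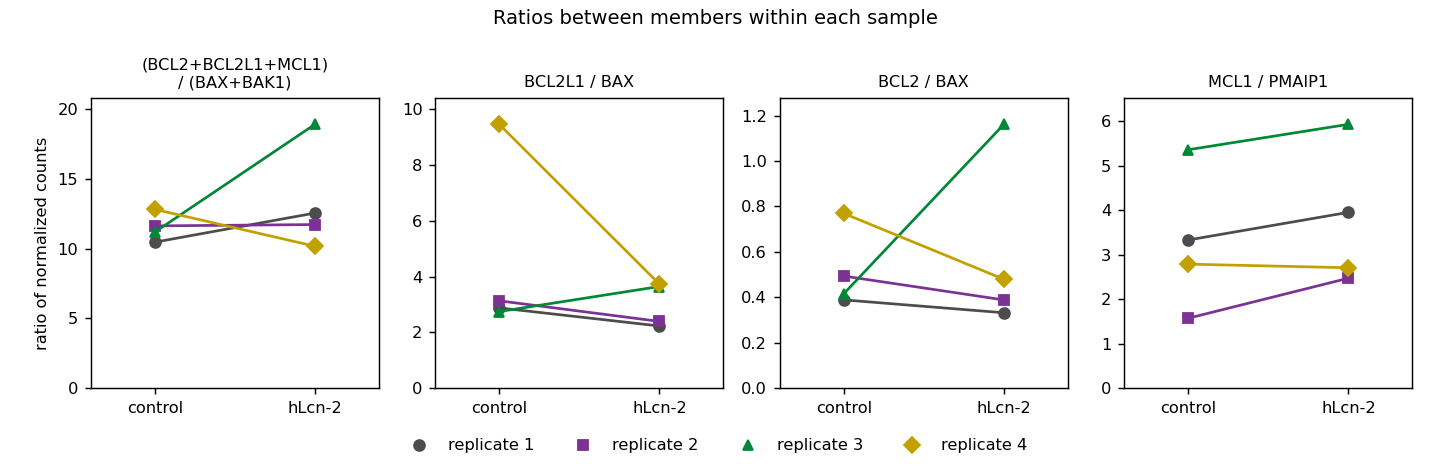
Ratios of normalized counts within each sample for summed pro-survival genes over effectors, BCL2L1 over BAX, BCL2 over BAX and MCL1 over PMAIP1, with same-numbered samples joined. The groups overlap in every panel, and control 4 stands at 9.46 for BCL2L1 over BAX, above the other controls (2.75 to 3.13).

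For MCL1, BAX and BBC3, the members with the highest mean in each role (BBC3 and PMAIP1 being near equal), the genes with the most similar profile over the 8 samples were sought among the 15592 other genes tested. For MCL1 they were CCDC51 and MED28, which differed from it by a root mean square of 0.053 each on the centred log2 scale. For BBC3 they were KIF13A (0.081) and NLGN2 (0.084). For BAX they were POU6F1 and RPS3AP12 (0.12 each), both at few reads, with RPS3AP12 between 0 and 1.23 normalized counts. With so many genes compared over 8 samples, such likeness is a description only.

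No other listed gene of the apoptotic pathway was called either. From 7 lists with 61 symbols, 55 were in the table and 52 were tested, and 0 were called by limma with or without the block or by edgeR with it. Of these 52, 24 were above and 28 below 0, with a median log2 fold change of -0.014. In limma 1 of the 52 (1.92%) had an unadjusted p-value under 0.05 without the block, against 2.28% of all genes, and 11 (21.2%) with it, against 12.2%.

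Among the other family members, BCL2L2, the gene of the pro-survival protein BCL-w, had 11.6, 14.9, 13.6 and 3.29 normalized counts in controls 1 to 4 and 19.0, 16.9, 21.2 and 11.7 after hLcn-2. All 4 pairs were higher, averaging 0.75 on the log2 scale (standard error 0.37, adjusted p when blocked 0.148 in limma and 0.0846 in edgeR). Control 4, the lowest value, rested on 5 reads, and how far it carried this mean was not tested. BCL2L2 shares exons with a readthrough gene, so its reads are uncertain. HRK, a BH3-only gene, had 2.61, 2.25, 7.58 and 1.98 normalized counts in controls and 0.980, 1.83, 1.97 and 1.52 after hLcn-2. Its groups did not overlap by the width of less than 1 read, since control 4 rested on 3 reads and hLcn-2 sample 3 on 4, and its log2 fold change was -0.71 (standard error 0.34, adjusted p = 0.305 with the block). BNIP3L, a mitophagy receptor, was the most abundant of this list at 172 (log2 fold change 0.18, adjusted p = 0.369 with the block).

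Downstream of the mitochondria, cytochrome c (CYCS) was the most abundant gene of its list at 454 normalized counts, with a log2 fold change of 0.013 (95% interval -0.25 to 0.28). CASP9, the initiator caspase, had 0.35 (standard error 0.28) and APAF1, its scaffold, -0.25 (standard error 0.21). BIRC3, an inhibitor of apoptosis protein, was the one listed gene with an unadjusted p-value under 0.05 without the block. It had 73.9, 76.7, 91.5 and 91.5 normalized counts in controls and 50.6, 63.4, 79.0 and 64.8 after hLcn-2, and was lower in 4 of 4 pairs. BIRC3 averaged -0.38 on the log2 scale (standard error 0.16, adjusted p when blocked 0.120 in limma and 0.0550 in edgeR). BIRC5, the gene of survivin, was named after its values were seen. It was lower in 4 of 4 pairs, with an adjusted p when blocked of 0.117 in limma and 0.0613 in edgeR. The samples numbered 3 held only 28.4 and 21.2 normalized counts, where the others held 76.1 to 121. XIAP (213) and BIRC6 had log2 fold changes of 0.18 and -0.17.

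At the outer membrane, the channel gene VDAC1 stood at 335 normalized counts with a log2 fold change of 0.013 (95% interval -0.31 to 0.33), and the 7 genes of this list lay between -0.062 (BCAP31) and 0.10 (TOMM20). Regulators of MCL1 and BH3-only protein stability lay between -0.090 and 0.14, among them GSK3B at 0.14, HUWE1, an E3 ligase of MCL1, at -0.088 and YWHAZ, a 14-3-3 gene, at -0.032. Of the transcription factors of BH3-only genes, ATF4 was the most abundant at 378 (log2 fold change 0.19, adjusted p = 0.410 with the block). FOXO1 had -0.38 (adjusted p = 0.427 with the block). In the death receptor arm that feeds BID, TNFRSF1A stood at 192 with -0.015, TNFRSF10B had 0.16 and CFLAR -0.13.

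**Figure D5:**
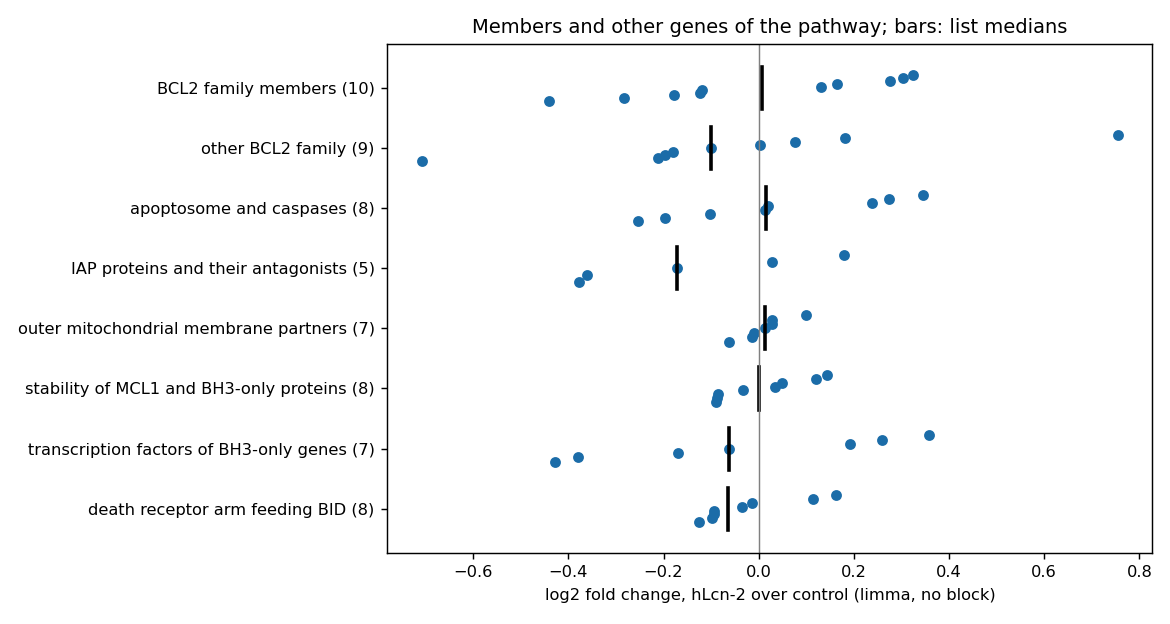
Log2 fold changes (limma, no block) of the 10 members and of 52 other tested genes of the pathway in 7 lists, 1 point per gene, with list medians as bars and the number of genes in brackets. The points lie on both sides of 0, from -0.71 (HRK) to 0.75 (BCL2L2), and none of the genes was called.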

How the data were processed

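CAKI1 RNA of 4 control and 4 hLcn-2 samples was sequenced as QuantSeq 3′ libraries with molecular identifiers. Per the methods and labels, the authors aligned reads to GRCh38 with STAR, collapsed them by identifier, counted them with HTSeq, removed genes without counts and used edgeR. The deposited values are a scaled signal, CPM of an adjusted library size. Every one of 134256 values was a whole multiple of its column's step within 0.01, which gave back whole reads (100%). In 1 cell a decimal comma was read as a point. Tests used limma 3.58.1 (R 4.3.3) with an intensity trend, two-sided, on log2(value + 1), keeping the 15593 genes that reached 1 CPM in 2 or more samples, with Benjamini-Hochberg adjustment at 0.05 over all of them.

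Same-numbered samples deviated together from their group means (correlations across genes of 0.48, 0.59, 0.61 and 0.31), so the replicate number was taken as pairing the samples and was used as a block in a second fit. Alternatives were pseudocounts, filters, scalings, no trend, edgeR 4.0.16 and DESeq2 1.42.0 on recovered reads, and leaving out samples. Models were tested on simulated data. The members and lists were chosen with earlier results of these data known. Of the other lists, the genes named are the 2 with the smallest p-value, the most abundant and any called; 1 of these is not reported here. Coordinates are from GENCODE 44 (GRCh38), promoters from RefSeq. Poisson intervals (95%) cover counting error only. Strand use in counting was not given in the sources used here.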

Additional observations from a re-analysis of the deposited data

Results flagged for a closer look

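In 28 groups of 4 samples examined (10 members and 4 ratios in each group), 1 value stood apart from its group; chance alone would give about 1.4. The ratio of BCL2L1 to BAX was 9.46 in control 4 and 2.75 to 3.13 in the other controls, so that the gap to the nearest made up 0.943 of the range. Control 4 was the shallowest library, with 123 reads of BCL2L1 and 13 of BAX behind this ratio. Without it the log2 difference of the ratio between the groups was 0.0017 instead of -0.42. The part of depth in this value was not tested.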

How the results depend on the processing

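No member was called under any of the 28 other settings run, nor at an adjusted p of 0.1. The lowest adjusted p-value of a member was 0.119 (BBC3, edgeR with the replicate block). Every fit without the block called 0 of all genes at 0.05 and at 0.1. In those fits the absence of called members therefore says nothing particular to them. With the replicate block, limma called 44 of all genes, edgeR 233 and DESeq2 173, and limma with the block and both samples of 1 number left out called 0 to 58, the lowest without number 3 and 14, 3 and 58 without numbers 1, 2 and 4. The block changed no call of a member or listed gene. With all samples, every member kept its direction under each pseudocount, filter, scaling and tool. With samples left out, 6 members kept it: BCL2 ran from 0.090 to 0.55, MCL1 from 0.064 to 0.24, BBC3 from 0.22 to 0.45, BAK1 from -0.59 to -0.18, BID from -0.22 to -0.098 and BAD from -0.42 to -0.11. The other 4 did not: BCL2L1 ran from -0.25 to 0.012, BAX from -0.031 to 0.55, PMAIP1 from -0.40 to 0.18 and BCL2L11 from -0.063 to 0.39. BCL2L1 was 0.0059 without number 1. The number of members without overlap between groups was 0 to 2 with 1 sample left out (chosen after seeing the data), namely BCL2 without hLcn-2 sample 1, BAD without control 4, and BBC3 and BID without control 3. The share of all genes was not counted for these settings. Leaving out a sample can only add to such separation, so these counts are not read as a result. The mean filter of 10 CPM removed BCL2 and BAD, and DESeq2 with the block gave BAD no adjusted p-value. For BCL2, BAD and BAK1, with 10 to 12 reads in their lowest sample, depth limits what can be shown.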

Other observations

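PMAIP1 and BBC3 had nearly the same mean level but changed places from number to number. The ratio of BBC3 to PMAIP1 was 0.993, 0.470, 2.09 and 0.853 in controls 1 to 4 and 1.49, 0.848, 1.94 and 1.11 after hLcn-2. Number 3 was highest and number 2 lowest in both groups, and the ratio was higher after hLcn-2 in 3 of 4 pairs, number 3 being the exception. BBC3 relative to MCL1 was 0.298, 0.299, 0.391 and 0.306 in controls and 0.376, 0.343, 0.327 and 0.410 after hLcn-2, again higher in 3 of 4 pairs with overlap between the groups. Both ratios were examined after the values were seen and were given no test.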
